A study of Mus musculus with 2 samples.

Results

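Matrix metalloproteinases (MMPs) and their tissue inhibitors (TIMPs) were followed through every cell type of a subcutaneous mouse lung tumor by single-cell RNA sequencing. The 10 genes were Mmp2, Mmp9, Mmp14, Mmp3, Mmp10, Mmp13, Mmp12, Timp1, Timp2 and Timp3. They were found by symbol among the 32285 genes of the count matrices, and all 10 had UMIs (unique molecular identifiers, each standing for 1 captured transcript) in both libraries. Lewis lung carcinoma (LLC) cells were grown under the skin of C57BL/6 mice of 2 genotypes. The sGCCtr mice were Gucy1b1 flox/flox, and the sGC∆PC mice were Cspg4-CreERT2::Gucy1b1 flox/flox (the sample label spells the gene Gucyc1b1). Mice of both genotypes were given tamoxifen at 4 weeks of age. In sGC∆PC mice it deletes the β1 subunit of soluble guanylate cyclase (sGC), the receptor for nitric oxide. The deletion is in cells with an active Cspg4 (NG2) promoter, chiefly pericytes. Tumors were taken 2 weeks after the cells were injected, and 3 tumors of each genotype were pooled into 1 library, so there was 1 library of each genotype and no replicate. Every comparison below is therefore between 2 libraries, without a test. Intervals in parentheses are exact 95% Poisson, binomial or conditional intervals that cover counting error only.

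MMPs are zinc-dependent endopeptidases that cut extracellular matrix. Mmp2 and Mmp9 encode the gelatinases, Mmp14 a protease anchored in the plasma membrane that activates pro-MMP2, Mmp3 and Mmp10 the stromelysins, Mmp13 a collagenase of fibrillar collagen and Mmp12 the macrophage elastase. TIMPs bind the active site of MMPs, and Timp2 also takes part in the activation of pro-MMP2 by Mmp14. In tumors, transcripts of these genes are known from cancer cells as well as from fibroblasts and infiltrating myeloid cells. Inducible members of the cluster of MMP genes on chromosome 9 are known for AP-1 sites close to their transcription starts.

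Within that cluster lie 4 members, all on the plus strand of GRCm38 (mm10), in the order Mmp13 (chr9:7272514-7283331), Mmp12 (chr9:7344381-7369499), Mmp3 (chr9:7445822-7455975) and Mmp10 (chr9:7502352-7510240). The other members lie elsewhere, Mmp2 at chr8:92827291-92853420, Mmp9 at chr2:164940780-164955850, Mmp14 at chr14:54431612-54445364, Timp1 at chrX:20870166-20874735, Timp2 on the minus strand at chr11:118301069-118355740 and Timp3 at chr10:86300372-86349506. RefSeq promoters of GRCm38.p6 (250 bases before to 50 after a transcription start) were at hand for 8 of the 10 members, with none for Mmp2 and Mmp9. The AP-1 letters TGAGTCA, or TGACTCA on the other strand, were present in 1709 of 32851 promoters in this table (5.20%). Among the 8 members they were present in a promoter of Mmp3, Mmp10, Mmp13 and Mmp12, and were not found in those windows of Mmp14, Timp1, Timp2 and Timp3. Mmp12 has 2 annotated starts, and the letters were at the second. The motif began 46 bases before the start of Mmp3, 63 before Mmp10, 35 before Mmp13 and 44 before the second start of Mmp12. The stretches around it are shown because these 4 members of the cluster share the motif but not their places. By class, Mmp3 was highest in fibroblasts, although cancer cells held 90.7% and 87.0% of its UMIs in the sGCCtr and sGC∆PC libraries. Mmp12 and Mmp13 were highest in phagocytes by class, and Mmp10 was scarce throughout. Capitals mark the motif, and all stretches are genomic sequence before the start.
Mmp3, chr9:7445749-7445810: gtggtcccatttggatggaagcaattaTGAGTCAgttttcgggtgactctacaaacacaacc
Mmp10, chr9:7502252-7502313: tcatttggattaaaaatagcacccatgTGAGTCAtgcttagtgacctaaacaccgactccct
Mmp13, chr9:7272452-7272513: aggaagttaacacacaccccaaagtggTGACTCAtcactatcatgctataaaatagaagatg
Mmp12, chr9:7347303-7347364: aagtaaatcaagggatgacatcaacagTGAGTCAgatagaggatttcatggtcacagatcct

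Barcodes numbered 15007 in the sGCCtr library and 25631 in the sGC∆PC library, at median depths of 23337 and 8019 UMIs. Of these, 12220 and 22498 passed the filters. They were sorted by marker genes into cancer cells (7450 and 11733), macrophages (2111 and 3109), monocytes (554 and 620), C1q-low phagocytes (219 and 323), osteoclast-like cells (68 and 122), dendritic cells (62 and 62), granulocytes (273 and 315), fibroblasts (103 and 247), endothelial cells (60 and 61), pericytes (35 and 40) and T and NK cells (107 and 113). Most cells with markers of more than 1 lineage were set aside as mixed, and these were 5.77% and 15.0% of the kept cells. Fibroblast markers did not keep a cell out of the cancer cells. The cells were shallower in the sGC∆PC library, most of all the fibroblasts, whose median was 20654 UMIs in sGCCtr and 2436 in sGC∆PC. Levels are therefore given as CPM, in which the UMIs of a gene are scaled to the same total of UMIs in every class. Shares of cells with a UMI are given among cells of at least 2000 UMIs, each thinned to 2000 UMIs. Shallower cells were left out of these shares. This kept 98 of 103 and 144 of 247 fibroblasts, 2085 of 2111 and 2131 of 3109 macrophages, and 152 of 273 and 190 of 315 granulocytes. The libraries thus differ in how much of a class such a share covers. T and NK cells serve as the type that should hold few of these transcripts. As a check of the genotypes, Gucy1b1 was at 127 CPM (95.1 to 165, 54 UMIs) in the pericytes of sGCCtr and at 38.9 CPM (18.6 to 71.5, 10 UMIs) in those of sGC∆PC, a log2 ratio of -1.70 (-2.84 to -0.71). Cspg4, whose promoter drives the Cre, was at 166 and 77.8 CPM there and also had UMIs in macrophages, at 54.4 and 31.5 CPM. The paper calls this Cre line a knock-in, and only sGC∆PC mice carry it. The libraries therefore differ by the Cre allele as well as by the deletion, and the design cannot tell these apart.

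**Figure D1:**
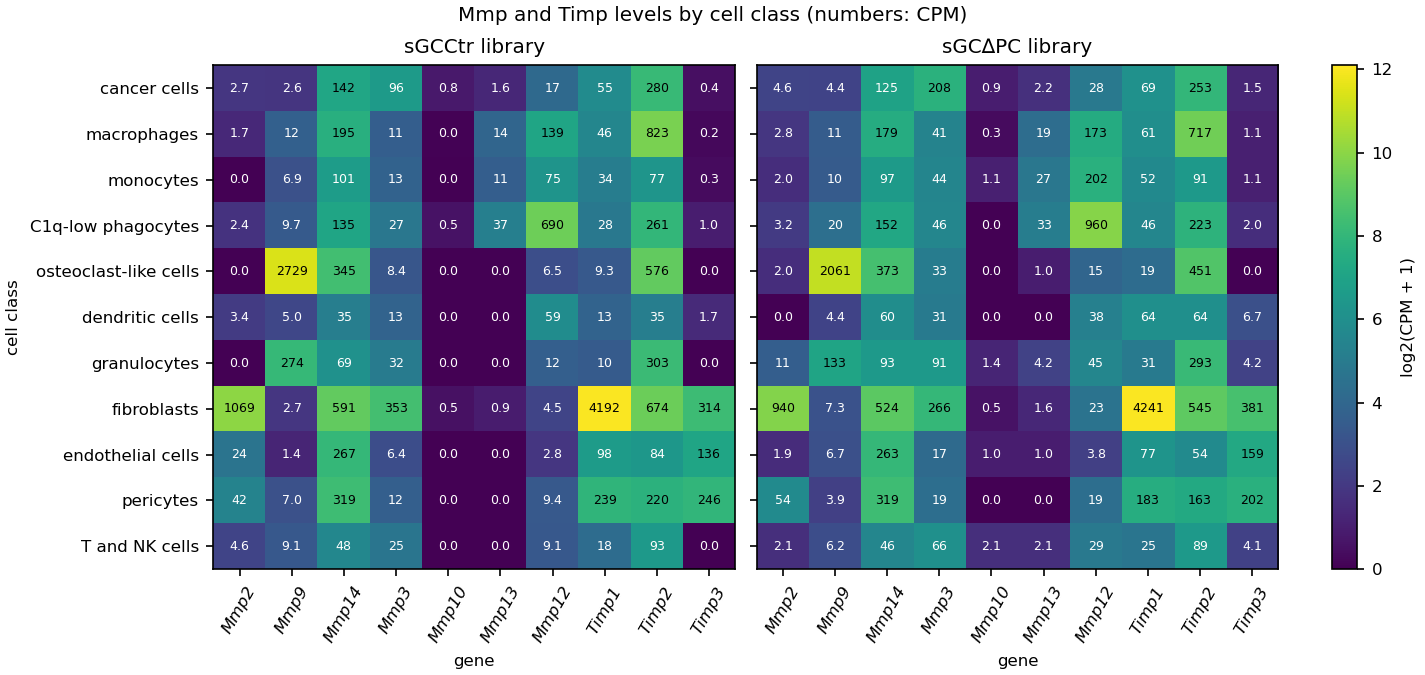
Levels of the 10 genes (columns) in 11 cell classes (rows) of the sGCCtr library (left) and the sGC∆PC library (right); color is log2(CPM + 1) and the printed number is CPM. High cells of the map are Timp1 in fibroblasts (4192 and 4241), Mmp9 in osteoclast-like cells (2729 and 2061) and Mmp2 in fibroblasts (1069 and 940). Mmp12 in C1q-low phagocytes (690 and 960) is above Mmp2 in fibroblasts in sGC∆PC.

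Mmp2, the gelatinase that cuts denatured collagen and basement membrane collagen, was a fibroblast transcript in this tumor. Fibroblasts held 1069 CPM (1026 to 1113, 2350 UMIs) in the sGCCtr library and 940 CPM (897 to 984, 1812 UMIs) in the sGC∆PC library. The next class, pericytes, was at 42.2 and 54.4 CPM, and T and NK cells were at 4.56 and 2.07 CPM. After thinning, 71.4% and 60.4% of fibroblasts had an Mmp2 UMI, compared with 1.08% and 1.05% of T and NK cells. The intervals of fibroblasts and of the next class did not overlap in either library, whereas in sGCCtr pericytes and endothelial cells, the next in the order, overlapped. The endothelial level of 24.0 CPM in sGCCtr rested on 34 UMIs, most of them in 1 cell, and was 1.91 CPM in sGC∆PC. Within the fibroblasts, cells of the adventitial-like state (Pi16, Dpp4, Cd34 and related markers) were at 1507 and 1640 CPM and cells of the contractile state (Acta2, Tagln, Myl9) at 881 and 1089 CPM. The adventitial-like state was 23 and 12 cells, and 2 of the 12 held 50% of the sGC∆PC UMIs; its log2 ratio turned from 0.12 to -2.93 without the 5 top cells of each library.

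Cancer cells carried far less Mmp2, 2.73 and 4.60 CPM, but being numerous they held 23.8% and 35.0% of all its UMIs. The mesenchymal cancer state, gated on Prg4, Aspn, Ptn, Lum, Dcn and Fbn1, held the most of the cancer states, at 12.9 and 22.4 CPM. Its summed fibroblast markers, which include Lum and Dcn, were at 4938 and 5613 CPM, compared with 1602 and 1765 CPM in all cancer cells. The part of fibroblast RNA in the Mmp2, Mmp14, Timp1 and Timp3 levels of this state was not tested. In cancer cells of sGCCtr, 50% of the Mmp2 UMIs came from 16 of 7450 cells, and in sGC∆PC from 98 of 11733. Mixed cells held another 24.0% and 19.2% of the Mmp2 UMIs. The level in fibroblasts was slightly lower in the sGC∆PC library (log2 ratio -0.19, -0.27 to -0.10). With each cell weighted alike the ratio was -1.02. The shallow sGC∆PC fibroblasts move with that value, and the markers of cancer cells stood at a median of 4.70% of their typical level in fibroblasts of sGCCtr and 14.1% in those of sGC∆PC; the part of either in the ratio was not tested.

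Mmp9, the second gelatinase, was by contrast highest in a rare phagocyte. Osteoclast-like cells, gated on Acp5, Atp6v0d2, Ocstamp, Dcstamp and Oscar, held 2729 CPM (2631 to 2829) in sGCCtr and 2061 CPM (1974 to 2151) in sGC∆PC. Among the genes that led this class by fold over the other classes Mmp9 came right after Acp5, Slc9b2, Atp6v0d2 and Ctsk, the last of which encodes the collagen-cutting protease of osteoclasts. The class was 68 and 122 cells, yet it held 51.8% and 34.3% of all Mmp9 UMIs. Mixed cells held another 17.6% and 32.8%, and cancer cells 19.2% and 23.7%. An Mmp9 UMI was seen in 55.4% and 61.1% of thinned osteoclast-like cells, and 50% of the UMIs of this class came from 7 and 6 cells. The log2 ratio between libraries was -0.40 (-0.49 to -0.32). It turned to 0.41 when the limit on mitochondrial UMIs was lowered to 5%, so no direction is read from it.

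Granulocytes came next for Mmp9, the class in which the protease is stored in granules. They held 274 CPM (234 to 320, 164 UMIs) in sGCCtr and 133 CPM (107 to 163, 94 UMIs) in sGC∆PC. The level was lower in the sGC∆PC library by a log2 ratio of -1.04 (-1.43 to -0.67), and the ratio stayed between -1.17 and -0.98 under the alternatives tried. The share of thinned granulocytes with an Mmp9 UMI was 33.6% (26.1 to 41.7) and 18.9% (13.6 to 25.3). Of the pathway genes, Lcn2 was at 1539 and 682 CPM there (log2 ratio -1.17, -1.34 to -1.01), and Mmp8, the neutrophil collagenase, at 87.0 and 46.7 CPM (-0.90, -1.57 to -0.24), which is short of 2-fold. The summed level of the 6 granulocyte markers moved in the same direction, from 90033 to 63995 CPM, and its part in the Mmp9 ratio was not tested.

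Outside these classes Mmp9 was low, at 12.3 and 10.6 CPM in macrophages, 2.64 and 4.38 CPM in cancer cells and 9.11 and 6.22 CPM in T and NK cells. The level in macrophages rested on few cells, since 4 cells held 50% of the sGCCtr UMIs. In the Il1b Cxcl2 state of macrophages it was 74.1 CPM in sGCCtr and 17.6 CPM in sGC∆PC (log2 ratio -2.07), but 94 of the 185 UMIs of sGCCtr came from 1 cell. Without the 5 cells with the most Mmp9 UMIs in each library the ratio was 0.22. In cancer cells the summed granulocyte markers were at 26.8 and 56.1 CPM and the summed osteoclast-like markers at 4.33 and 8.20 CPM, both higher in the sGC∆PC library, as was Mmp9 (log2 ratio 0.73); their part in it was not tested.

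Mmp14 was expressed broadly, from 35.3 CPM upward in every class of both libraries. Fibroblasts were highest, at 591 CPM (560 to 624) and 524 CPM (492 to 557). Osteoclast-like cells followed at 345 and 373 CPM, pericytes at 319 and 319 CPM, endothelial cells at 267 and 263 CPM and macrophages at 195 and 179 CPM. The intervals of osteoclast-like cells and pericytes overlapped in both libraries. Cancer cells were at 142 and 125 CPM, and because they are most of the tumor they held 82.1% and 76.3% of all Mmp14 UMIs. Mmp14 was also spread over many cells. In cancer cells 50% of its UMIs took 1722 and 1422 cells. T and NK cells were at 47.9 and 45.6 CPM.

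Among the cancer states Mmp14 was highest in mesenchymal cells (255 and 223 CPM), next in cells rich in the nuclear RNAs Kcnq1ot1, Malat1 and Neat1 (210 and 165 CPM), and lowest in G1/S cells (102 and 99.0 CPM). Between libraries it was the steadiest MMP. The log2 ratio was -0.18 (-0.20 to -0.17) in cancer cells, -0.12 in macrophages, -0.17 in fibroblasts and 0.00 (-0.41 to 0.41) in pericytes, the class in which the deletion was directed. It was lower in the sGC∆PC library in all 7 cancer states, most in Igfbp6 Clu cells (-0.41) and least in G1/S cells (-0.05).

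Mmp3, stromelysin 1, which also activates other pro-MMPs, was at least 2-fold higher in the sGC∆PC library in cancer cells. Cancer cells held 39399 UMIs, or 95.7 CPM (94.8 to 96.7), in sGCCtr and 69261 UMIs, or 208 CPM (206 to 209), in sGC∆PC. The log2 ratio was 1.12 (1.10 to 1.14), a 2.17-fold higher level in the sGC∆PC library. The share of thinned cancer cells with an Mmp3 UMI was 9.66% and 22.0%. Under the alternatives the ratio lay between 1.10 and 1.20. The distribution was very uneven, for 50% of the UMIs came from 174 of 7450 cells in sGCCtr and from 433 of 11733 in sGC∆PC, and single cells held up to 883 and 503 UMIs. With the 5 top cells of each library left out, the ratio stayed within that range.

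The higher Mmp3 level of the sGC∆PC library was present in each cancer state. It was 187 and 426 CPM in Igfbp6 Clu cells (log2 ratio 1.19), 215 and 409 CPM in mesenchymal cells (0.93), and 92.6 and 202 CPM in nuclear RNA cells (1.12). G1/S cells were at 85.1 and 175 CPM, mitotic cells at 80.6 and 178 CPM and hypoxic cells at 80.3 and 170 CPM. Cells without a state, the lowest in both libraries, were at 46.4 and 147 CPM (1.67). The Igfbp6 Clu and mesenchymal states were thus the highest in both libraries, and all 7 states were higher in sGC∆PC.

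Fibroblasts, the class with the highest Mmp3 level, did not share that direction. They were at 353 CPM (329 to 379) in sGCCtr and 266 CPM (244 to 290) in sGC∆PC, a log2 ratio of -0.41, and the ratio was below 0 under every alternative tried, reaching -1.04 without the 5 top cells. Only 8 and 4 fibroblasts held 50% of the UMIs of the class. Fibroblasts held 1.79% and 0.644% of all Mmp3 UMIs, and cancer cells 90.7% and 87.0%. The Igfbp6 Clu and mesenchymal cancer states of sGC∆PC, at 426 and 409 CPM, were above the fibroblast class. The adventitial-like state was at 345 and 459 CPM and the contractile state at 269 and 149 CPM, on 173, 96, 98 and 63 UMIs. In sGC∆PC 1 adventitial-like cell held 64 of the 96 UMIs and 1 contractile cell 54 of the 63, and the adventitial-like log2 ratio turned from 0.41 to -2.43 without the 5 top cells, so no direction is read from these states.

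Mmp3 was also higher in the sGC∆PC library in macrophages, monocytes, granulocytes and T and NK cells. Macrophages were at 11.3 and 41.3 CPM (log2 ratio 1.87), monocytes at 13 and 43.8 CPM (1.75), granulocytes at 31.8 and 90.6 CPM (1.51) and T and NK cells at 25.1 and 66.3 CPM. After thinning, 3.23% and 13.7% of T and NK cells had an Mmp3 UMI. As a percentage of its level in cancer cells, Mmp3 stood at 11.8% and 19.9% in macrophages, 33.2% and 43.6% in granulocytes and 26.2% and 31.9% in T and NK cells. The summed cancer markers Rhox5, Krt18, Krt8 and Hmga2 stood in the same classes at 7.38% and 9.82%, 17.8% and 19.4%, and 9.84% and 14.1% of their cancer level. Mmp3 and the cancer markers were thus both at a higher percentage in sGC∆PC in these classes, with Mmp3 above the markers. In C1q-low phagocytes Mmp3 went from 27.8% to 22.1% and the markers from 8.70% to 8.90%. The levels in macrophages and monocytes were below that of T and NK cells in both libraries and are not read as expression by those cells. T and NK cells were shallower (medians of 3334 and 3449 UMIs) than macrophages (11426 and 4228) and monocytes (6067.5 and 5669). The comparison therefore cannot decide whether macrophages and monocytes express Mmp3, and the source of these UMIs was not tested.

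**Figure D2:**
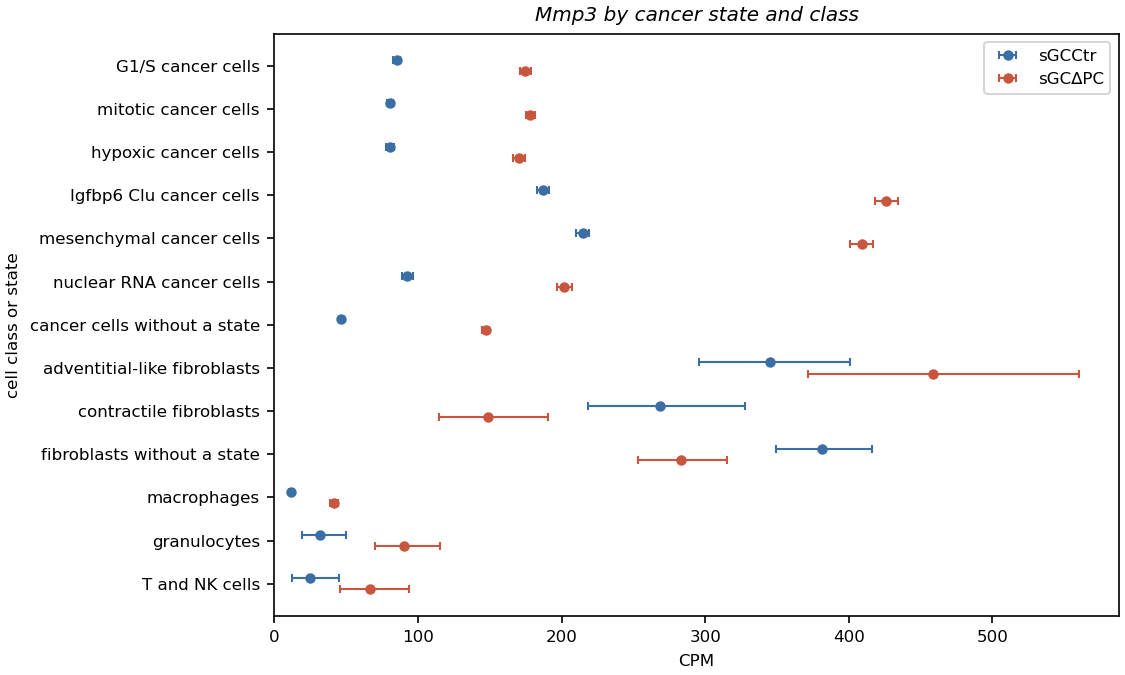
Mmp3 level in CPM (horizontal axis) in 7 cancer states, 3 fibroblast groups, macrophages, granulocytes and T and NK cells (vertical axis); points are the sums over a class in 1 library (blue, sGCCtr; red, sGC∆PC) and bars are exact 95% Poisson intervals. All 7 cancer states sit higher in the sGC∆PC library, from 147 to 426 CPM against 46.4 to 215 CPM, while contractile fibroblasts and fibroblasts without a state sit lower.

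Mmp10, stromelysin 2, lies in the same cluster as Mmp3 on chromosome 9 and was close to absent. It had 339 UMIs in the whole sGCCtr library and 367 in the sGC∆PC library, of which 320 and 313 were in cancer cells (0.777 and 0.939 CPM, log2 ratio 0.27, 0.04 to 0.50). The cells were few, with 50% of these UMIs in 50 and 76 cancer cells. It was listed at 0 UMIs in 7 classes of sGCCtr and 4 of sGC∆PC. Among T and NK cells of sGCCtr this allows a level of up to 6.84 CPM. Among the cancer states the highest were hypoxic cells in sGCCtr (1.58 CPM) and Igfbp6 Clu cells in sGC∆PC (2.18 CPM).

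Mmp12, the macrophage elastase, had its highest class level in C1q-low phagocytes. These, cells of at least 2000 UMIs with macrophage markers at 5% to 25% of the typical macrophage level and other lineages below their limits, held 690 CPM (655 to 727, 1428 UMIs) in sGCCtr and 960 CPM (922 to 999, 2409 UMIs) in sGC∆PC. This class was set up after Mmp12 had been seen high in cells that no gate took, so its level is a description. For the same reason the place of Mmp12 as first of the genes leading the class adds nothing to its level. Retnla, Gdf15, Ccl24, F7 and Mmp13 followed. Macrophages were at 139 and 173 CPM, monocytes at 75.4 and 202 CPM and T and NK cells at 9.11 and 29.0 CPM. After thinning, 21.0% and 25.4% of C1q-low phagocytes and 7.34% and 12.9% of macrophages had an Mmp12 UMI, compared with 1.08% and 9.47% of T and NK cells.

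Within macrophages Mmp12 differed widely by state. Among the 4 states other than the mitotic one it was lowest in the resident-like Folr2 Ccl8 state (26.2 and 69.8 CPM), and higher in the MHC class II state (198 and 375 CPM), the Il1b Cxcl2 state (262 and 298 CPM) and the Gpnmb Hmox1 state (731 and 280 CPM). Mitotic macrophages were at 40.8 and 56.4 CPM and macrophages without a state at 44.3 and 37.5 CPM. Very few cells carried these sums. In C1q-low phagocytes 5 cells of each library held 50% of the Mmp12 UMIs, with up to 239 and 417 UMIs in 1 cell. In Gpnmb Hmox1 macrophages of sGCCtr 1 cell held 620 of 1625 UMIs, and in monocytes of sGC∆PC 1 cell held 322 of 720. The UMIs of such cells are not independent draws, and their intervals are too narrow.

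The ratios of Mmp12 between libraries were read with that in mind. In C1q-low phagocytes the log2 ratio was 0.48 (0.38 to 0.57), but it was -0.15 with a raised gate. In Gpnmb Hmox1 macrophages it was -1.38 (-1.51 to -1.26), while the share of thinned cells with a UMI was 21.5% and 19.2%, and the ratio ranged from -1.43 to -0.54 over the alternatives. Monocytes gave 1.42, and 0.75 without the 5 top cells. In macrophages as a whole the ratio was 0.31 and in cancer cells 0.77 (16.6 and 28.3 CPM). Cancer cells held 51.2% and 48.2% of all Mmp12 UMIs. The summed macrophage markers in cancer cells were at 74.6 and 155 CPM, higher in the sGC∆PC library as Mmp12 was, and their part in the ratio was not tested. Fibroblasts were at 4.55 and 23.3 CPM on 10 and 45 UMIs (log2 ratio 2.36, with a summed macrophage marker level of 285 and 332 CPM), below the level of T and NK cells in both libraries.

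Mmp13, collagenase 3, had its highest class levels in the same phagocytes, below those of Mmp12. C1q-low phagocytes were at 36.7 CPM (28.9 to 46.0) and 33.5 CPM (26.7 to 41.4), macrophages at 14.3 and 19.1 CPM and monocytes at 11.3 and 26.7 CPM. The intervals of C1q-low phagocytes and monocytes overlapped in sGC∆PC. The C1q-low class was set up on sight of Mmp12, which was found in the same cells as Mmp13. The Mmp13 level and rank of that class are therefore a description too. T and NK cells were at 0 and 2.07 CPM. Cancer cells were at 1.55 and 2.18 CPM (log2 ratio 0.49). Being numerous, they held 52.5% and 42.4% of all Mmp13 UMIs, compared with 30.5% and 26.1% in macrophages. The source of the UMIs in cancer cells was not tested. As for Mmp12, the Folr2 Ccl8 state was the lowest of the 4 states other than the mitotic one, with 3.37 and 11 CPM, followed by 33.7 and 37.8 CPM in the MHC class II state, 29.6 and 44.4 CPM in the Il1b Cxcl2 state and 58.5 and 23.2 CPM in the Gpnmb Hmox1 state. In sGC∆PC mitotic macrophages (6.95 CPM) and macrophages without a state (4.88 CPM) were lower than the Folr2 Ccl8 state. The Gpnmb Hmox1 state had a log2 ratio of -1.33 (-1.79 to -0.89). However, 47 of its 130 sGCCtr UMIs came from 1 cell, and the ratio was 0.37 with a raised gate. Of the classes with at least 50 Mmp13 UMIs, only monocytes passed 2-fold (log2 ratio 1.24, 0.69 to 1.82).

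Mmp12 and Mmp13 were found in the same cells. Among thinned macrophages with an Mmp13 UMI, 56.8% in sGCCtr (21 of 37) and 51.7% in sGC∆PC (30 of 58) also had an Mmp12 UMI, compared with 6.45% and 11.8% of macrophages without one. In C1q-low phagocytes the values were 8 of 10 and 9 of 15 cells, compared with 18.2% and 23.7% of the rest. All cells had been thinned to the same number of UMIs, but their classes came from unthinned counts. Both genes differed between macrophage states, and the part of the states in this overlap was not tested. Over 54 points, the classes and states of both libraries, the log2(CPM + 1) values of Mmp12 and Mmp13 had a Pearson r of 0.84. These points share libraries, states are parts of classes, and the C1q-low class, set up on sight of Mmp12, is among them.

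**Figure D3:**
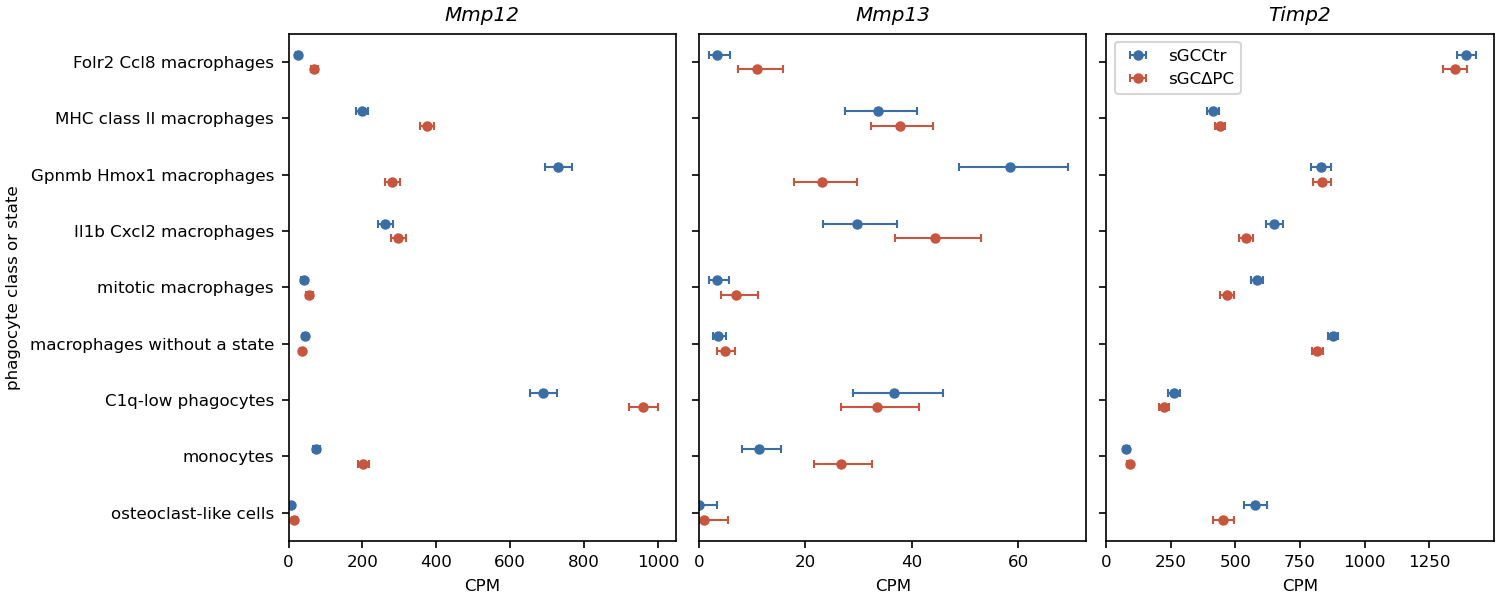
Mmp12, Mmp13 and Timp2 levels in CPM (horizontal axes) in phagocyte classes and macrophage states (vertical axis); points are sums over a class in 1 library (blue, sGCCtr; red, sGC∆PC) and bars exact 95% Poisson intervals. Timp2 is highest in Folr2 Ccl8 macrophages (1394 and 1349 CPM). In sGCCtr Mmp12 and Mmp13 sit low there (26.2 and 3.37 CPM). In sGC∆PC that state (69.8 and 11 CPM) sits above mitotic macrophages (56.4 and 6.95 CPM) and macrophages without a state (37.5 and 4.88 CPM).

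Timp1 had the highest level of any member in any class. Fibroblasts held 4192 CPM (4106 to 4278, 9216 UMIs) in sGCCtr and 4241 CPM (4150 to 4334, 8178 UMIs) in sGC∆PC, a log2 ratio of 0.02 (-0.03 to 0.06). A Timp1 UMI was seen in 85.7% and 84.7% of thinned fibroblasts, compared with 2.15% and 9.47% of T and NK cells. The contractile state was highest, at 7150 and 6276 CPM, and the adventitial-like state was at 2855 and 3017 CPM. Pericytes were at 239 and 183 CPM, endothelial cells at 97.5 and 76.5 CPM, and cancer cells at 55.4 and 69.4 CPM (log2 ratio 0.32). Mesenchymal cancer cells were at 84.3 and 141 CPM (0.74). Cancer cells held 62.3% and 59.3% of Timp1 UMIs in the tumor and fibroblasts 25.2% and 21.0%.

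Timp2 was highest in macrophages by level. They held 823 CPM (812 to 834, 21337 UMIs) and 717 CPM (707 to 728, 16762 UMIs), a log2 ratio of -0.20. The Folr2 Ccl8 state was highest at 1394 and 1349 CPM, with the Gpnmb Hmox1 state at 830 and 836 CPM and the MHC class II state at 412 and 441 CPM. The state with the most Timp2 had the least Mmp12 in both libraries among the 4 macrophage states other than the mitotic one. In sGC∆PC, however, mitotic macrophages (56.4 CPM) and macrophages without a state (37.5 CPM) had less Mmp12 than that state (69.8 CPM). The Gpnmb Hmox1 state, next of the 4 for Timp2, had the most Mmp12 in sGCCtr (731 CPM). Over the 54 points Timp2 and Mmp12 had a Pearson r of 0.10. Monocytes, in contrast to macrophages, were at 77.4 and 90.9 CPM, close to T and NK cells at 93.4 and 89.1 CPM. Fibroblasts were at 674 and 545 CPM (-0.31), osteoclast-like cells at 576 and 451 CPM, granulocytes at 303 and 293 CPM and cancer cells at 280 and 253 CPM (-0.14). By number, cancer cells held 76.6% and 71.4% of all Timp2 UMIs and macrophages 14.2% and 14.2%.

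Timp3, the inhibitor that binds to matrix, was a transcript of fibroblasts and vascular cells, with T and NK cells at 0 and 4.15 CPM. Fibroblasts were at 314 CPM (291 to 338) and 381 CPM (354 to 410), pericytes at 246 CPM (201 to 298) and 202 CPM, and endothelial cells at 136 and 159 CPM. In fibroblasts 50% of the UMIs came from 5 and 4 cells. The log2 ratio was 0.28 in fibroblasts, and it was -0.46 with each cell weighted alike. In cancer cells Timp3 was scarce, 175 and 485 UMIs or 0.425 and 1.46 CPM, and the log2 ratio was 1.78 (1.52 to 2.03). Hypoxic cancer cells were at 0.279 and 3.58 CPM, on 12 and 135 UMIs, with 11 of the sGC∆PC cells holding 50%. Mesenchymal cancer cells were at 1.75 and 4.32 CPM, on 72 and 112 UMIs.

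**Figure D4:**
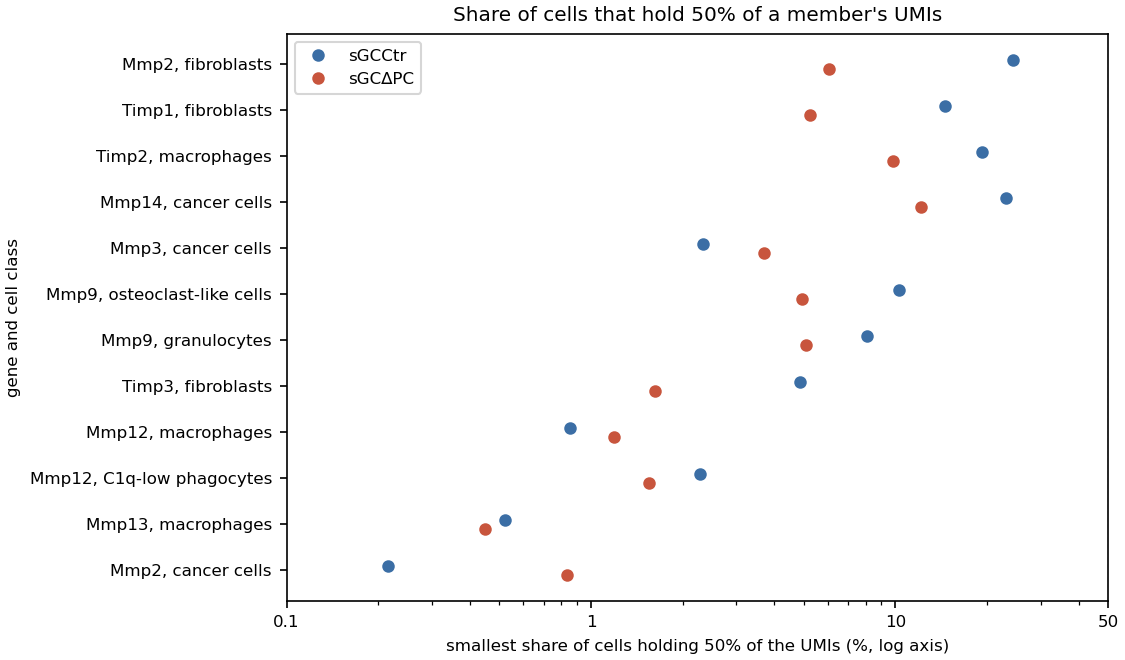
Smallest share of the cells of a class, in percent on a log axis, that together held 50% of a member's UMIs (blue, sGCCtr; red, sGC∆PC), for 12 pairs of gene and class. Mmp2 in fibroblasts (24.3%) and Mmp14 in cancer cells (23.1%) of sGCCtr were the most evenly spread, while Mmp12 in macrophages rested on 0.853% and 1.19% of the cells.

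Summed over the 7 MMPs and the 3 TIMPs, the classes differed in which of them prevailed (3′ UMIs count molecules and need no scaling by gene length). Fibroblasts held 0.390 and 0.341 MMP UMIs for each TIMP UMI, the lowest of all 11 classes in both libraries. Macrophages held 0.429 and 0.546. C1q-low phagocytes held 3.11 and 4.48, and osteoclast-like cells 5.27 and 5.29, the highest. In C1q-low phagocytes Mmp12, which prompted that class, supplied 690 and 960 of the 901 and 1215 CPM of MMPs. Cancer cells went from 0.783 in sGCCtr (262.5 CPM of MMPs and 335 CPM of TIMPs) to 1.15 in sGC∆PC (374 and 324 CPM). Since Mmp3 supplied 95.7 and 208 of those CPM, that shift followed Mmp3. These are transcript counts and not protease activity, which depends on zymogen activation.

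Over the 54 points the members fell into sets by their levels. Timp1 and Mmp2 had a Pearson r of 0.94, Timp3 and Mmp2 0.89 and Timp3 and Timp1 0.86, all highest in fibroblasts. The lowest r was that of Timp3 and Mmp12, at -0.51. Of all genes, Prelp, Igfbp5 and Adamtsl1 were most like Mmp2 (r of 0.97 for each). Pdzrn3 was most like Timp1 (0.97), Tshz2 most like Timp3 (0.98), Lum most like Mmp3 (0.93), Plod1 most like Mmp14 (0.92), Slc17a5 most like Timp2 (0.83), Rufy4 most like Mmp9 (0.89) and Ceacam19 most like Mmp13 (0.86). Lum is itself a marker in the fibroblast and mesenchymal gates. For Mmp12 the most alike gene was Mmp13, with Gabbr2 and F7 next at 0.81.

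The members are set beside all genes as a description only, because they were chosen with earlier results of these data known. A gene was counted as 2-fold apart where its CPM differed at least 2-fold in either direction and it had at least 50 UMIs in the class over both libraries. In cancer cells 3.76% of 15271 genes passed, and 2 of 10 members did, Mmp3 and Timp3, both higher in sGC∆PC. Of all genes that passed in cancer cells, 549 were higher in sGC∆PC and 25 lower, so that direction is not particular to the members. There 8 members were higher and 2, Mmp14 and Timp2, lower, with a median log2 ratio of 0.61 beside 0.01 over all genes. Of these 8, Mmp9 was below the level of T and NK cells in both libraries, on 4 and 3 T and NK UMIs. In sGC∆PC so were Mmp10 (T and NK cells at 2.07 CPM on 1 UMI), Mmp12 (28.3 CPM, with T and NK cells at 29.0 CPM on 14 UMIs) and Timp3 (1.46 CPM, with T and NK cells at 4.15 CPM on 2 UMIs). These 3 were above T and NK cells in sGCCtr, where Mmp2 was below (2.73 and 4.56 CPM). T and NK cells were far shallower (medians of 3334 and 3449 UMIs, compared with 50212.5 and 14989 in cancer cells). The comparison therefore cannot decide whether cancer cells express these genes. The summed macrophage and granulocyte markers in cancer cells were also higher in sGC∆PC, and their part was not tested. The median is therefore not read as a trait of the members. In macrophages 1.46% of genes passed and 1 of 8 members, Mmp3. In monocytes 1.03% of genes passed and 3 of 7 members, Mmp3, Mmp12 and Mmp13, all higher. Of all genes that passed, 123 were higher and 49 lower in macrophages, and 63 were higher and 21 lower in monocytes. In both classes the Mmp3 level was below that of T and NK cells, and without Mmp3 the counts were 0 and 2 members. In C1q-low phagocytes 0.971% of genes passed and 1 of 7 members, Mmp9, on 20 and 51 UMIs.

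In granulocytes 2.69% of genes passed and 2 of 4 members, Mmp9 lower and Mmp3 higher in sGC∆PC. Mmp3 was at 31.8 and 90.6 CPM there and at 25.1 and 66.3 CPM in T and NK cells. Cancer markers stood at 17.8% and 19.4% of their cancer level in granulocytes, the most of any class other than cancer cells. The source of these Mmp3 UMIs was not tested, and without Mmp3 only Mmp9 passed. In fibroblasts 2.18% of genes passed and 1 of 7 members, Mmp12. In osteoclast-like cells 1.55% of genes passed and 0 of 3 members, in endothelial cells 1.53% and 0 of 4, and in pericytes 3.03% and 0 of 4. In pericytes, with 35 and 40 cells, Timp1, Timp2 and Timp3 gave log2 ratios of -0.39, -0.43 and -0.28, all with intervals that included 0, and after thinning Timp1 and Timp2 turned to 0.80 and 1.26. A difference of these inhibitors between the pericytes of the libraries was not detectable at this depth.

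**Figure D5:**
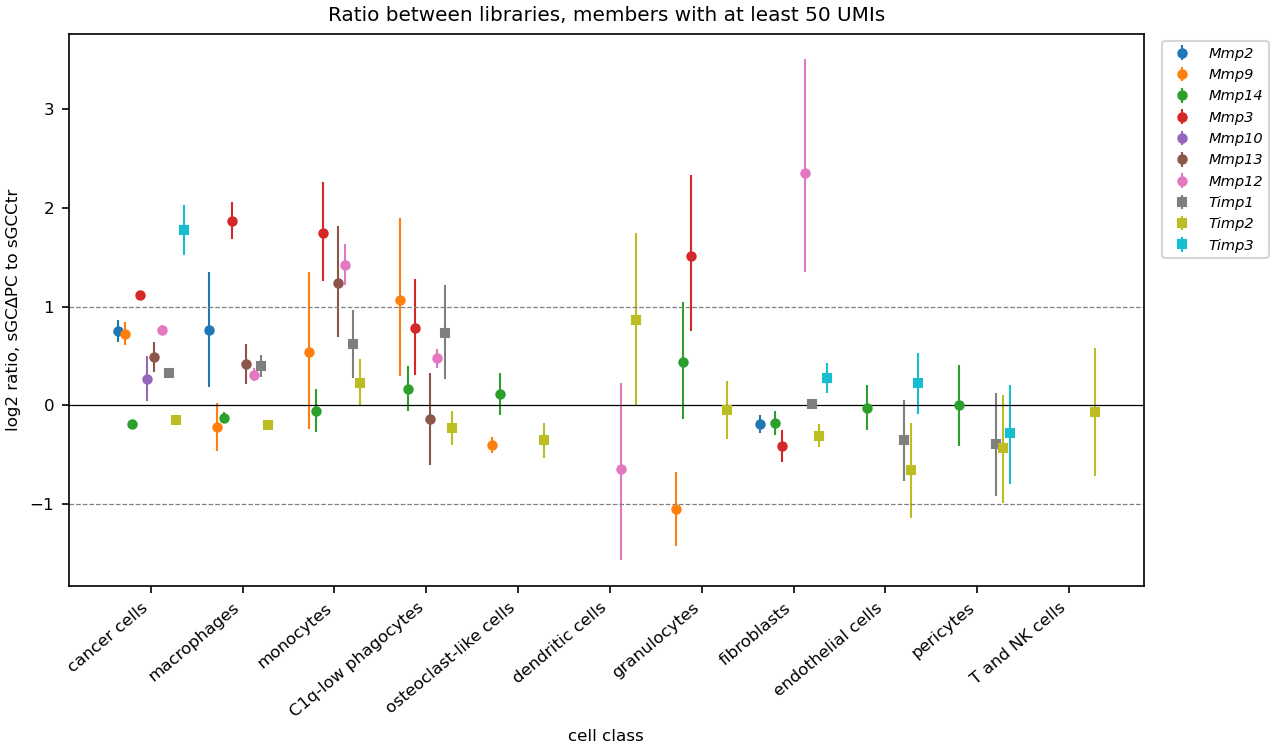
Log2 ratio of CPM, sGC∆PC to sGCCtr (vertical axis), of each member with at least 50 UMIs in a class (horizontal axis); circles are MMPs, squares TIMPs, bars exact 95% conditional intervals and dashed lines mark 2-fold. Mmp3 lies above the upper line in cancer cells, macrophages, monocytes and granulocytes and below 0 in fibroblasts, and Mmp9 lies at the lower line in granulocytes.

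Other genes of the pathway were taken from 3 lists, 15 further MMPs and Timp4, 13 ADAM and ADAMTS proteases and 13 activators and regulators. In cancer cells 0 of 7 other MMPs with enough UMIs were 2-fold apart, 1 of 13 ADAM and ADAMTS genes was (Adamts15, 0.0777 and 0.174 CPM) and 1 of 13 regulators was, Thbs1 (6.80 and 15.4 CPM), which encodes the matrix protein thrombospondin 1. In macrophages 1 of 4 other MMPs (Mmp25, higher in sGC∆PC) and 0 of 7 ADAM and ADAMTS genes passed. Regulators that passed there, all higher in sGC∆PC, included Lcn2 (0.733 and 4.96 CPM), Thbs1 (122 and 252 CPM), Plat (1.39 and 3.34 CPM), which encodes a plasminogen activator, and Serpinb2 (1.5 and 3.08 CPM). The summed granulocyte markers in macrophages were at 60.7 and 119 CPM, higher in sGC∆PC as Lcn2 was, and their part in its ratio was not tested. In monocytes 0 of 2, 0 of 5 and 0 of 9 passed, and in pericytes none did.

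In fibroblasts 0 of 3 other MMPs, 1 of 12 ADAM and ADAMTS genes and 0 of 12 regulators were 2-fold apart. The one was Adamts5, a protease of the proteoglycan aggrecan, at 132 CPM in sGCCtr and 52.4 CPM in sGC∆PC (log2 ratio -1.33). In C1q-low phagocytes 1 of 8 regulators passed, Serpinb2, an inhibitor of urokinase, lower in sGC∆PC (21.3 and 2.39 CPM). In granulocytes 2 of 7 regulators did, Lcn2 lower and Thbs1 higher (1002 and 2011 CPM). In endothelial cells Thbs1 passed (50.9 and 200 CPM). In osteoclast-like cells 1 of 5 regulators did, Thbs1 (19.5 and 94.6 CPM). Thbs1 was also higher in the sGC∆PC library in T and NK cells, at 36.5 and 95.3 CPM on 16 and 46 UMIs (log2 ratio 1.39, 0.54 to 2.31).

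By level, the other MMPs had places of their own. Mmp19 (106 and 164 CPM) and Mmp23 (93.7 and 75.2 CPM) were found in fibroblasts, Mmp15, a membrane-type MMP, in endothelial cells (87.6 and 56.4 CPM), Mmp25 in dendritic cells (145 and 160 CPM) and Mmp8 in granulocytes and in monocytes (54.0 and 36.8 CPM). Bsg, an inducer of MMP transcription on the surface of tumor cells, was at 587 and 557 CPM in cancer cells. Furin, which cuts the prodomain of Mmp14, was at 21.1 and 27.9 CPM there. Lrp1, an endocytic receptor that clears MMPs and their complexes with TIMPs, was at 763 and 748 CPM in fibroblasts. Timp4 had 1 UMI in the cancer cells of sGCCtr and 0 in those of sGC∆PC.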

How the data were processed

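Tumors were digested with collagenase IV, Dispase II and DNase, and libraries were made with the 10x Genomics single cell 3′ kit. Per the labels the authors processed the reads with Cell Ranger 6.1.1 against mm10, and the deposited matrices hold raw UMI counts per gene and barcode, without normalization. Barcodes under 10% mitochondrial UMIs and no further than 3 median absolute deviations from their library's median log UMIs and log genes were kept (81.4% and 87.8%), and 131 barcodes occur in both libraries. A cell joined a class where the share of its UMIs on that class's markers reached 25% of the typical level (the median over cells rich in those markers, both libraries together), on at least 3 marker UMIs, with other lineages under 10% (cancer markers under 25%). Fibroblast markers did not keep a cell out of the cancer cells or pericytes, nor monocyte markers out of the T and NK cells. The lists of macrophages, monocytes, osteoclast-like and dendritic cells did not exclude one another. Cells failing the limits were called mixed and set aside, which takes out doublets only where a second lineage reached its limit. Doublets under those limits, of the exempt pairs, among the phagocyte lists or within 1 class can remain. No doublet caller was run. States were taken from cells with at least 2000 UMIs, as the marker list with the highest standardized score, if at least 1 SD above the mean. Gates used markers only, never the members, although the C1q-low class was added after Mmp12 had been seen in ungated cells. Cell types were rebuilt here, so they need not equal those of the study.

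UMIs were summed per class and library, with exact Poisson, binomial and conditional intervals (Python 3.11.15, numpy 2.4.6, scipy 1.17.1, pandas 2.3.3). Molecules of 1 cell are not independent, so intervals cover counting error only. The floor for 0 UMIs is 3 UMIs in the class. The scripts were tested on simulated data. The genes named were the 10 members, the pathway lists, and for each member the genes with the highest Pearson r of log2(CPM + 1). Members and lists were chosen with earlier results of these data known, and the C1q-low class after Mmp12 had been seen in ungated cells. Mmp1a, listed among the other MMPs, was not among the genes used here, and 1 gene of the regulator list is not reported here. Promoters came from RefSeq (GRCm38.p6) and gene positions from GENCODE annotation of GRCm38, whose identifiers matched the files for all 10 members.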

Additional observations from a re-analysis of the deposited data

How the results depend on the processing

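Each of 155 log2 ratios was recomputed under the alternatives, which gave 1554 values. Of these, 1181 stayed within the counting interval of the value reported, 371 left it, and 2 ratios past 2-fold changed sign. Mmp13 in Gpnmb Hmox1 macrophages went from -1.33 to 0.37 with a raised gate. Mmp9 in Il1b Cxcl2 macrophages went from -2.07 to 0.22 without the 5 cells richest in it, an alternative added after the data were seen, as was the restriction to cells with at least 2000 UMIs. The counts of members 2-fold apart moved as follows, with the cause not tested. In cancer cells 2 became 4 with thinned cells and 5 as a mean of per-cell CPM. In macrophages 1 became 2 with a raised gate and 2 as a per-cell mean. In monocytes 3 became 1 with thinned cells. In C1q-low phagocytes 1 became 0 with thinned cells, 2 as a per-cell mean and 0 with genes of at least 200 UMIs, which leaves fewer genes. In granulocytes 2 became 1 with a raised gate, 0 with thinned cells, 1 with genes of at least 200 UMIs and 1 with cells of at least 2000 UMIs, although their ratios stayed between -1.17 and -0.98 for Mmp9 and between 1.23 and 2.18 for Mmp3. In fibroblasts 1 became 0 with a lowered gate, a raised gate, thinned cells, genes of at least 200 UMIs or cells of at least 2000 UMIs, and 2 as a per-cell mean or without the 5 richest cells. In endothelial cells 0 became 1 with mixed cells kept, and in pericytes 0 became 1 as a per-cell mean. Pericytes, endothelial cells and fibroblasts are limited by few cells. No paired analysis was possible because each genotype has 1 library.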
